A study of Mus musculus with 63 samples.

Results

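The genes described here code for the proteins of the cytosolic ribosome. They were taken by symbol from a deposited table of 20306 genes: every gene whose name starts with Rpl or Rps and a digit, with *Rplp0*, *Rplp1*, *Rplp2* and *Rpsa* added, and with the S6 kinase genes, *Rps19bp1* and pseudogenes left out. This gave 84 genes. Of these, 43 code for proteins of the large (60S) subunit, 3 for its acidic stalk, 31 for proteins of the small (40S) subunit and 7 for paralogs of another ribosomal protein. No measured value entered the choice. Of the 84, 81 passed the filter on low counts and were tested, among 16092 tested genes.

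The 63 libraries come from mouse islets from which mCherry-positive cells were sorted as β cells, the insulin-producing cells of the pancreas. All animals carried 1 mCherry allele (Cherry/+) and Ins2-Cre, a Cre recombinase driven by the insulin 2 promoter, so the gate rests on that promoter. ICR mice labelled wild type gave cells on embryonic day 18 (E18.5, n = 4), after birth at day 1 (P1, 3 libraries), day 7 (P7, 3 libraries) and day 10 (P10, 5 libraries), and at 84 to 364 days (Adult, n = 21, 11 female and 10 male, blood glucose 103 to 190 mg/dl). The type 1 model was NOD-ICR, with non-diabetic animals of 82 to 212 days (T1ND, n = 7, 5 female and 2 male, 108 to 245 mg/dl) and diabetic animals of 98 to 150 days (T1D, n = 4, 3 female and 1 male, 311 to 358 mg/dl and 1 above 600). The type 2 model was made of Ob/+ mice of strain BTBR, labelled wild type, of 53 to 179 days (T2H, n = 9, 4 female and 5 male, 103 to 271 mg/dl), and of diabetic Ob/Ob mice labelled BTBR/mix, of 58 to 78 days (T2D, n = 7, 4 female and 3 male, 408 to 534 mg/dl and 5 above 600). The T2H and T2D groups each hold 2 animals with 2 copies of Ins2-Cre, and these 2 groups differ in strain label and age as well as in Ob. Sex is not given before adulthood. The labels do not say how many animals went into a library, so p-values measure the spread between these libraries. In their titles, P7 replicates 1 and 2 share a number, as do P10 replicates 2 and 3, and Adult replicate 10 with T2D replicate 6. Each pair is 1 Qiagen and 1 TRIzol library. The Adult and T2D pair differs in strain label, Ob and age (124 and 70 days), so its number does not mark 1 animal. The P10 titles also carry different endings that look like dates. For the P7 and P10 pairs the labels do not say whether a number marks an animal.

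RNA was extracted either on a Qiagen RNeasy Plus column or with TRIzol and phenol-chloroform, and the groups are unevenly split between the 2 methods. Qiagen was used for 1 of 4 E18.5 libraries, 1 of 3 at P1, 2 of 3 at P7, 2 of 5 at P10, 17 of 21 Adult, 7 of 7 T1ND, 3 of 4 T1D, 1 of 9 T2H and 3 of 7 T2D libraries. Libraries held 23894167 to 73839270 expected counts. Insulin transcripts (*Ins1* and *Ins2*) took 10.8% to 28.2% of counts at P1, the group with the lowest mean, and a mean of 40.3% at P10, so the defining product of β cells was abundant in every group. Other cells were present in places: the stromal marker list held 1.54% to 2.80% of counts in P1 replicates 2 and 3 and in P7 replicates 1 and 2, and the acinar list (digestive enzyme genes) averaged 0.116% at E18.5 and 19.95% in T1D. In bulk RNA, fewer cells of a type and less RNA per cell cannot be told apart.

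A ribosome carries close to 1 copy of each of its proteins, so cells make these proteins in balance, and ribosome supply sets how much protein a cell can synthesize. In β cells that synthesis is dominated by proinsulin. Messenger RNAs of ribosomal proteins usually begin with a 5′ terminal oligopyrimidine tract (TOP), an unbroken run of C and T at the start site. Through it the mTORC1 kinase and the RNA-binding protein LARP1 control their translation and stability together.

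The annotated start sites were searched for such a run. RefSeq starts on GRCm38.p6, the assembly also called mm10, were matched for 64 of the 84 genes. In each line below, 15 bases before and 15 bases from the annotated start are given 5′ to 3′ on the transcribed strand, with the longest C and T run that touches the 5 bases before to 10 after the start in capitals. In this window the first 4 genes hold a long run and the next 4 do not. All 8 appear in the results that follow.

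Rps6, chr4:86857353-86857382, minus strand: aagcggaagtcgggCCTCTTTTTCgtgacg

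Rplp2, chr7:141447636-141447665, plus strand: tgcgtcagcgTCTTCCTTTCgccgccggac

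Rpl28, chr7:4792950-4792979, plus strand: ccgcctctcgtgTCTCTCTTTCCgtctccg

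Rpl22l1, chr3:28805493-28805522, plus strand: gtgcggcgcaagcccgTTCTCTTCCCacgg

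Rplp0, chr5:115559452-115559481, plus strand: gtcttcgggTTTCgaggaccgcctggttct

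Rps16, chr7:28350674-28350703, plus strand: cccgcttctgtcgtgacgtagcaCTCaatg

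Rpl36al, chr12:69184053-69184082, minus strand: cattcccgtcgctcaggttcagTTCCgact

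Rpl7l1, chr17:46782642-46782671, minus strand: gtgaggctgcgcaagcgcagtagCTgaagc

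The run is 10 bases long in *Rps6*, *Rplp2* and *Rpl22l1* and 11 in *Rpl28*, but 4 or fewer in *Rplp0*, *Rps16*, *Rpl36al* and *Rpl7l1*. A run of at least 8 bases within 5 bases before to 10 after the annotated start was found in 26 of 64 ribosomal protein genes (40.6%), against 13% of all 27025 genes with a start and 10.4% of 67 mitochondrial ribosomal protein genes. The letters CTTTC or CTTTT lay within 50 bases of the start on the transcribed strand in 41 of 64 (64.1%), against 24.4% of all genes. On the other strand these shares were 20.3% and 23.7%. A match describes letters in a window, and an annotated start can lie some bases from the one a β cell uses. A gene without a long run here can therefore still give a TOP mRNA.

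The 84 genes together took the largest share of counts around birth and a smaller one from P10 on. At E18.5 the 4 libraries gave a lowest share of 1.07%, a median of 1.32% and a highest of 1.42% (mean 1.28% ± 0.156, SD). The 3 P1 libraries held 1.37%, 1.75% and 2.09%, and the 3 P7 libraries 0.992%, 1.27% and 2.53%. At P10 the share was 0.710% to 0.923% with a median of 0.764% (mean 0.776% ± 0.0862), and in adults 0.458% to 0.926% with a median of 0.645% (mean 0.653% ± 0.104). All libraries of E18.5, P1 and P7 thus lay above all libraries of P10 and Adult. The adult models stayed within the range set by ICR adults or slightly beyond it. Their lowest, median and highest shares were 0.323%, 0.679% and 0.937% in T2H, 0.490%, 0.675% and 0.846% in T1ND, 0.536%, 0.775% and 0.810% in T1D, and 0.569%, 0.730% and 1.06% in T2D.

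**Figure D1:**
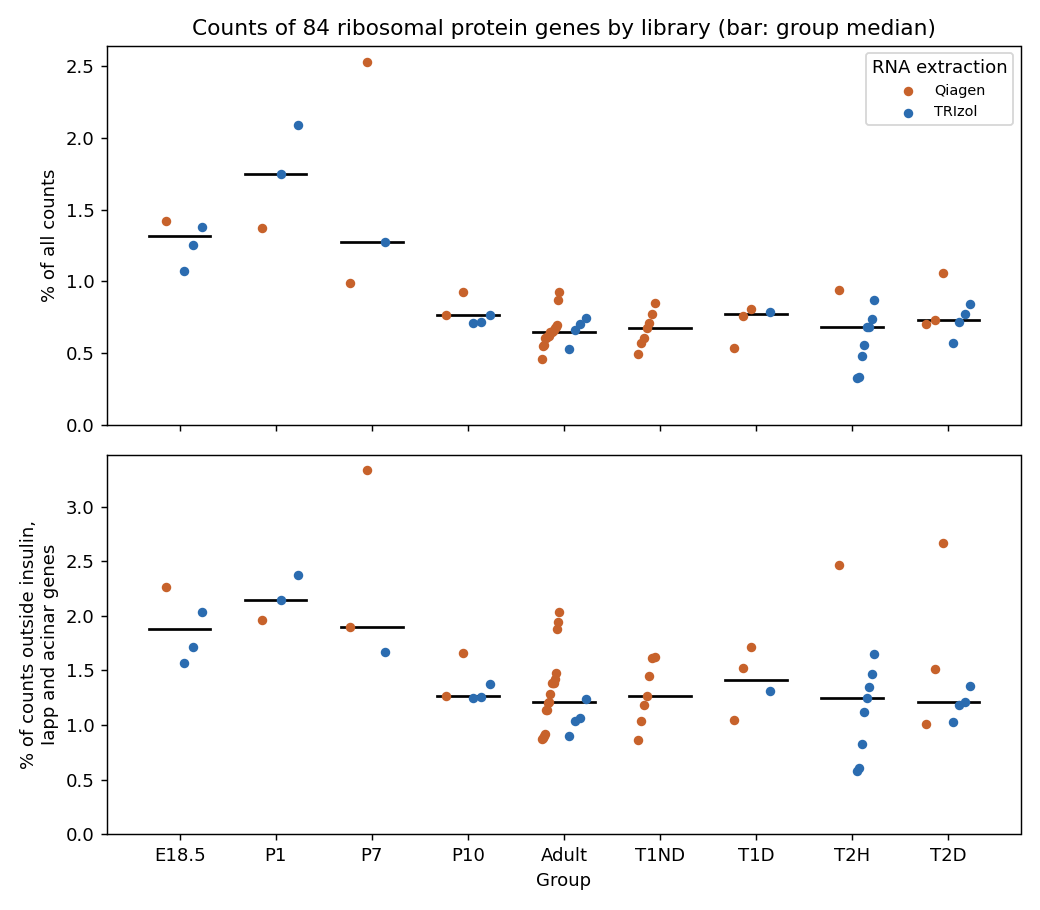
Share of counts held by the 84 ribosomal protein genes in each library (points, coloured by RNA extraction; bars, group median), as percent of all counts and as percent of counts outside insulin genes, *Iapp* and acinar genes. All E18.5 and P1 libraries lie at or above 1.07% of all counts, and all adult groups have medians of 0.645% to 0.775%.

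A share of all counts also moves with the few genes that fill a β cell library. Over counts outside the insulin genes, *Iapp* and the acinar list, the mean share was 1.90% at E18.5, 2.16% at P1, 2.30% at P7, 1.36% at P10 and 1.27% in adults. On this scale the models averaged 1.26% (T2H), 1.29% (T1ND), 1.40% (T1D) and 1.42% (T2D). The order of the mean shares over the ages was kept except that P7 came above P1, and the highest P7 value came from replicate 2, a library with 1.59% stromal counts. The separation of single libraries was not kept. E18.5 ran from 1.57% to 2.265%, P10 from 1.25% to 1.66% and Adult from 0.872% to 2.03%, with overlap. The part of stromal cells in the share at P1 and P7 was not tested.

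Most ribosomal protein genes were lower in RNA extracted with TRIzol than in RNA from Qiagen columns. Among ICR adults, *Rplp0*, the core protein of the stalk, had levels in CPM, counts relative to the library total after scaling with TMM factors (scaled CPM, used for all levels below), of 214 at lowest, 311 at the median and 672 at highest in 17 Qiagen libraries, and 206, 219 and 241 in 4 TRIzol libraries. *Rpsa*, a 40S protein also known as the laminin receptor, ran from 77.1 over 158 to 249 with Qiagen and from 72.9 over 78.7 to 93.2 with TRIzol. *Rpl5*, which carries 5S rRNA into the large subunit, ran from 45.3 over 97.5 to 150 with Qiagen and from 46.4 over 54.2 to 58.8 with TRIzol. For these 3 genes the TRIzol libraries sat at the low end of the Qiagen range and overlapped it. All 4 TRIzol adults are female, of 136 or 289 days, whereas the Qiagen adults are of both sexes and 84 to 364 days. The Qiagen adults include females younger and older than the TRIzol adults, but extraction was not compared within females. The values above thus mix extraction with sex and age. Over all 63 libraries, with a mean for each group in the model, 74 of 81 ribosomal protein genes were lower with TRIzol and none was higher. Of all tested genes 11.1% were lower and 6.3% higher. The median log2 difference was −0.58 for the 81 genes and −0.04 for all genes.

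Both subunits took part in this difference: 39 of 43 genes of the large subunit, 29 of 31 of the small subunit, 3 of 3 of the stalk and 3 of 4 tested paralogs were lower. The largest falls among called genes were those of *Rps12* (−1.07 ± 0.20, SE, adjusted p = 0.00015, edgeR quasi-likelihood test), *Rpsa* (−0.93 ± 0.14) and *Rpl5* (−0.89 ± 0.14). The 7 genes that did not pass were *Rpl36*, *Rpl37*, *Rpl39*, *Rpl41*, *Rps27*, *Rps29* and *Rpl7l1* (0.07 ± 0.07, adjusted p = 0.49). In the ICR adults alone, 17 against 4 libraries that also differ in sex and age, the median was −0.53 but only 2 of 80 tested genes passed. Without P7 replicate 2, P10 replicate 2, T2H replicate 9 and T2D replicate 7, Qiagen libraries that are high for most of the family, 43 genes passed with a median of −0.39. On library totals without scaling factors, all genes moved to a median of 0.35 and the ribosomal protein genes to −0.13, with 6 lower and 1 higher. Within the family, longer transcripts tended to larger falls (Spearman rho −0.266 across 80 genes, which share libraries and are not independent), whereas rho was 0.159 across all tested genes. Since extraction and group are linked, each group comparison below holds extraction as a term, and values within one method stand beside it where they change the result.

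**Figure D2:**
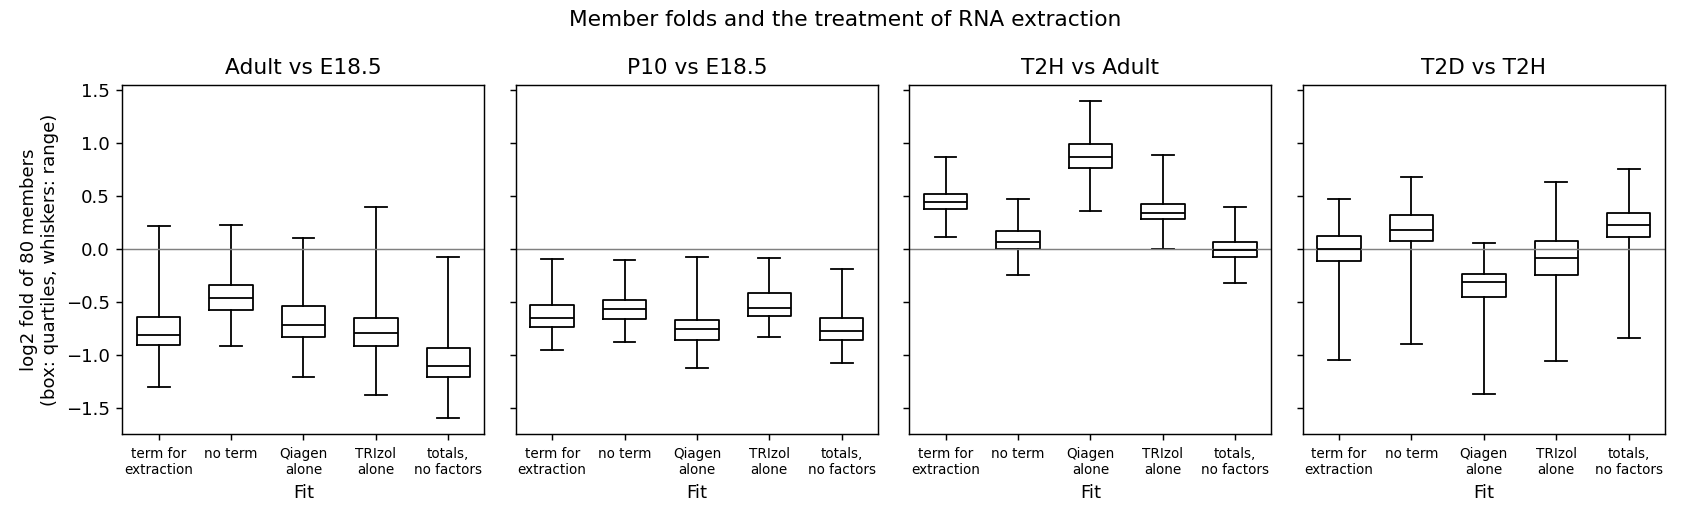
Log2 differences of 80 ribosomal protein genes in 4 comparisons, each fitted with and without a term for extraction, in Qiagen or TRIzol libraries alone and on library totals without factors (boxes, quartiles over genes; whiskers, range). The Adult vs E18.5 medians lie between −0.45 and −0.81 in the fits with and without the extraction term, and the T2H vs Adult median moves from 0.44 with the term to 0.07 without it and −0.01 on library totals.

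Between E18.5 and adulthood the ribosomal protein genes fell together. *Rps16*, a 40S protein that reaches towards the tRNA in the P site, was at 102.5, 95.9, 72.3 and 73.5 scaled CPM in the 4 E18.5 libraries, and at 27.3, 42.4 and 89.3 (lowest, median, highest) in adults. *Rpl28*, a 60S protein, was at 99.5, 76.5, 65.0 and 62.3 at E18.5 and at 23.7, 43.9 and 79.2 in adults. *Rpl29*, another protein of the large subunit, was at 144, 103, 85.7 and 85.5 at E18.5 and at 31.6, 60.6 and 88.3 in adults. In all 3 genes most adult libraries lay below every E18.5 library, and the highest adults overlapped the lowest embryos. Their log2 differences were −1.30 ± 0.23, −1.17 ± 0.19 and −1.18 ± 0.17, with adjusted p of 5.9e-06, 1.9e-06 and 2.2e-07 (edgeR). In all, 69 of 81 genes were lower in adults and none was higher, where 19.2% of all tested genes were lower and 15.6% higher. The median was −0.81 and 80 of 81 values lay below 0, the exception being *Rpl7l1*.

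The fall covered each class: 36 of 43 genes of the large subunit, 27 of 31 of the small subunit, 3 of 3 of the stalk and 3 of 4 paralogs. For the stalk, the docking site of the elongation factors, *Rplp0* fell by 0.85 ± 0.20, *Rplp1* by 0.71 ± 0.24 and *Rplp2* by 0.98 ± 0.22 on the log2 scale. *Rps6*, the 40S protein that S6 kinase phosphorylates, was at 317, 252, 206 and 215 at E18.5 and at 151, 203.1 and 341 in adults, an overlap over most of the embryonic range, and its difference was −0.51 ± 0.16 (edgeR adjusted p = 0.012). *Rpl3*, at the peptidyl transferase centre, changed by −0.54 ± 0.18 and *Rpsa* by −0.97 ± 0.23. The 12 genes that did not pass were *Rpl10* (−0.27), *Rpl17*, *Rpl36a* (−0.45), *Rpl37* (−0.49), *Rpl38* (−0.57), *Rpl41* (−0.28), *Rpl7l1* (0.21), *Rpl9* (−0.12), *Rps12* (−0.59), *Rps21* (−0.26), *Rps23* (−0.36) and *Rps27*. The number of calls and the median changed with the libraries used and with the extraction term. Shares of all tested genes are not given for the fits that follow. In TRIzol libraries alone, 3 against 4, 61 genes were lower with a median of −0.79. In Qiagen libraries alone, with 1 E18.5 library, 3 passed with a median of −0.71, and without the extraction term 21 passed with a median of −0.45. With terms for acinar, stromal and myeloid counts 30 passed, with a median of −0.70.

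**Figure D3:**
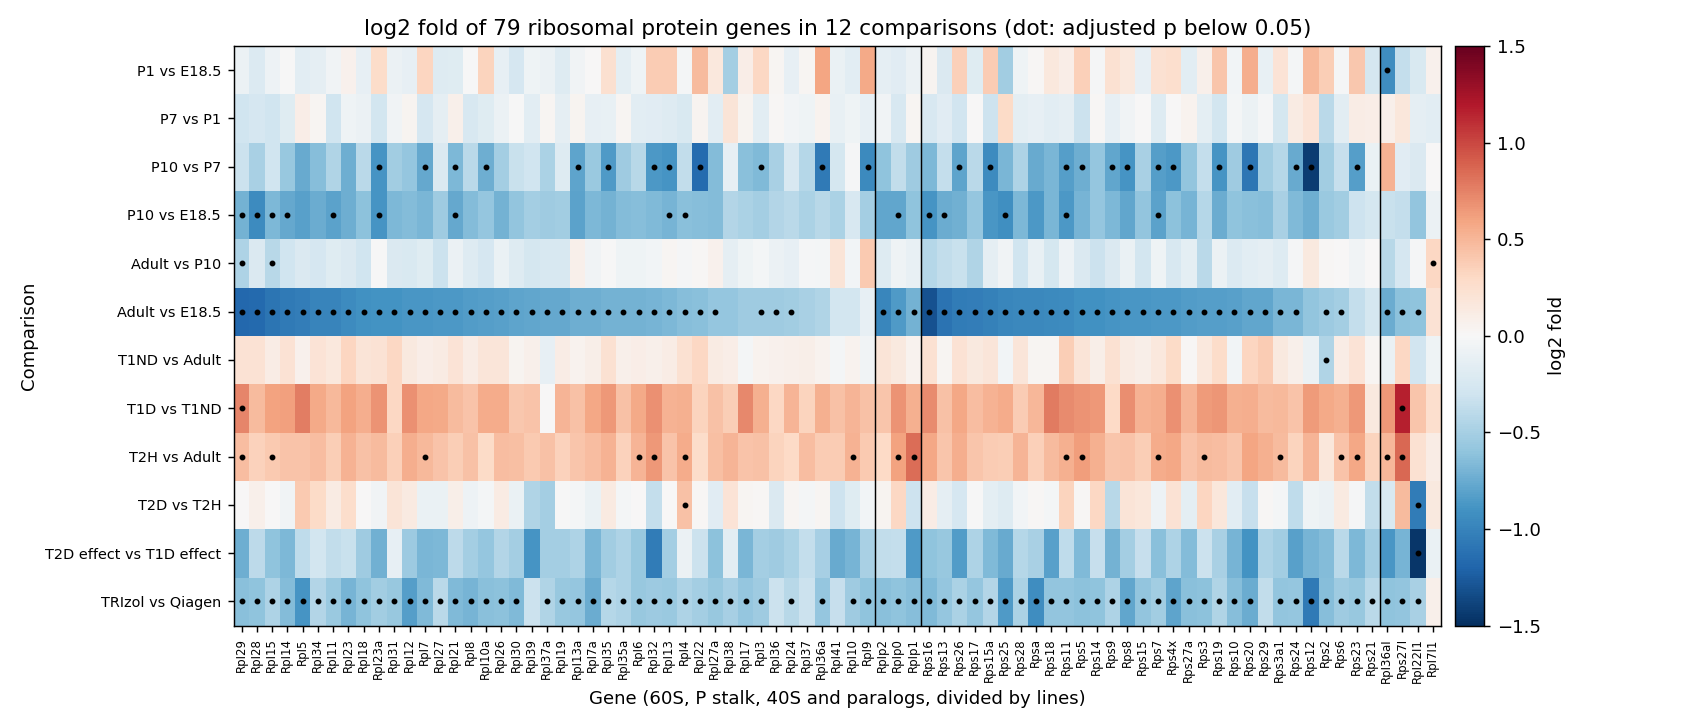
Log2 differences of 79 ribosomal protein genes (columns, by class) in 12 comparisons (rows), from lower (blue) to higher (red); a dot marks an adjusted p below 0.05 (edgeR). The rows for Adult vs E18.5 and TRIzol vs Qiagen are blue over nearly all genes, with 69 and 74 of the 81 tested genes called.

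Between neighbouring ages, most calls were made from P7 to P10. From E18.5 to P1 the median difference was −0.02, and 0 genes were higher and 1 lower, beside 8.63% and 3.42% of all genes. The median's sign turned to 0.39 on library totals, where all genes stood at 0.44. The 1 gene was *Rpl36al*, an autosomal copy of *Rpl36a*, at 316, 226, 203.8 and 171 at E18.5 and at 183, 94.3 and 103 at P1, so that only P1 replicate 1 lay among the embryos (−0.93 ± 0.26, edgeR adjusted p = 0.014). It did not pass without P1 replicate 2, with 1.54% stromal counts, or without P1 replicate 3, with 2.80%. Between P1 and P7 no gene passed (edgeR and DESeq2), where 0.0559% of all genes were higher and 0.0497% lower, and the median was −0.12. An unadjusted p below 0.05 was found for 1 of 81 genes, *Rps27*, and for 717 of all 16092 tested genes.

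From P7 to P10, 26 genes were lower and none higher, beside 18.9% and 10.5% of all genes, with a median of −0.56. *Rps12*, a 40S protein, was at 22.3, 104.5 and 30.5 in the P7 libraries and at 10.9 to 21.1 at P10, without overlap. *Rpl22*, a 60S protein, was at 20.6, 47.04 and 23.1 at P7 and at 9.63 to 16.1 at P10, again without overlap. P7 replicate 2 stood far above the others in both. The differences were −1.42 ± 0.45 and −1.15 ± 0.31. Group ranges did not overlap for 25 of 81 genes, all lower at P10 (30.9%), beside 25.1% of all tested genes in either direction and 13.3% in that direction. Without P7 replicate 2, which was the highest P7 library for 76 of 80 genes, 1 gene passed, and *Rps12* stood at −0.79. Without the 4 libraries of more than 1% stromal counts, which leaves 1 P7 library, no gene of the family passed by edgeR, 7 of all tested genes were lower and none higher, and the family's median was −0.26. The stromal share was 2.78% and 1.59% in P7 replicates 1 and 2 and 0.0350% in replicate 3. The acinar list held 1.15%, 11.97% and 17% of counts in P7 replicates 1, 2 and 3.

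By P10 the family was lower than at E18.5, in a comparison that sets no P7 library against another group. Of the 81 genes 16 were lower and none higher, beside 3.52% and 3.01% of all genes, with a median of −0.65 and all 81 values below 0. *Rpl28* stood at 37.8, 54.4, 39.6, 39.4 and 34.8 at P10, below all E18.5 libraries (−0.95 ± 0.24, edgeR adjusted p = 0.0087). *Rplp0* was at 602, 426, 374 and 385 at E18.5 and at 246, 355, 240, 277 and 241 at P10, also without overlap. Ranges did not overlap for 21 of 81 genes, all lower at P10 (25.9%), beside 15.1% of all tested genes in either direction and 8.26% in that direction. The count rests on single libraries, with 1 gene left without E18.5 replicate 2, 2 without P10 replicate 1 and 0 without the extraction term, while a fit of these 2 groups alone called 73. The share of all tested genes called in these fits is not given here, so the 73 is not read as particular to the family. From P10 to adulthood 1 gene was higher and 2 were lower, beside 8.84% and 9.98% of all genes, with a median of −0.14. The lower genes were *Rpl29* (−0.47) and *Rpl15* (−0.42), both of the large subunit. The higher one was *Rpl7l1* (0.30 ± 0.11, edgeR adjusted p = 0.046), which ran from 42.8 to 56.0 scaled CPM at P10 and from 44.3 to 75.3 in adults, with overlap.

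**Figure D4:**
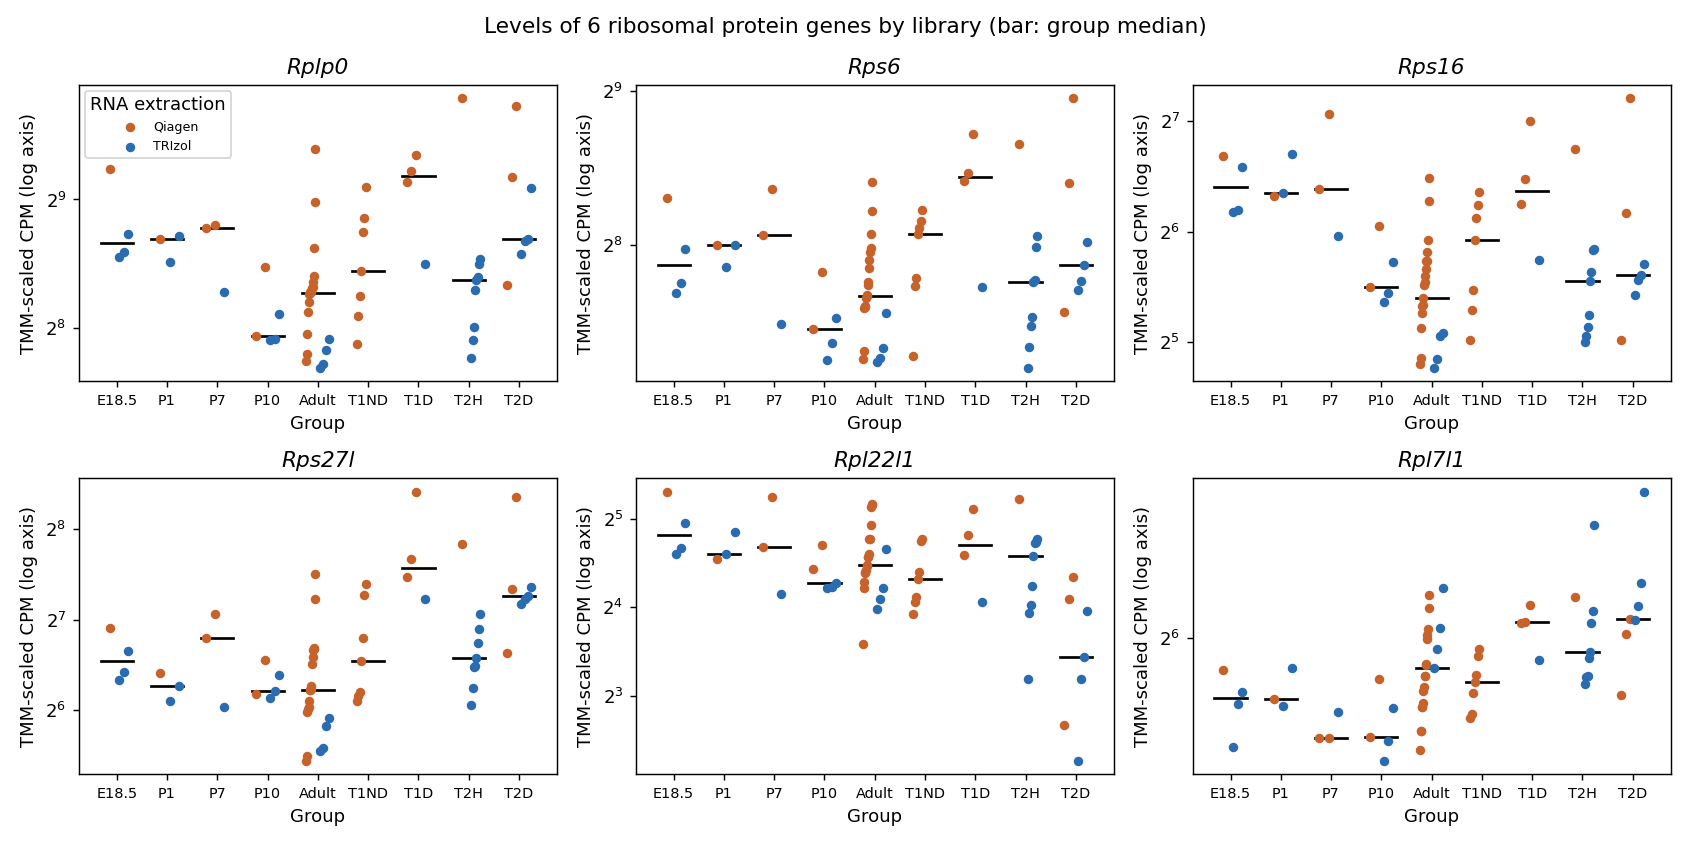
Scaled CPM (log axis) of *Rplp0*, *Rps6*, *Rps16*, *Rps27l*, *Rpl22l1* and *Rpl7l1* in every library by group (points, coloured by extraction; bars, group median). *Rps16* runs from 72.3 to 102.5 at E18.5 and has a median of 42.4 in adults, whereas *Rpl7l1* stays between 42.8 and 75.3 across E18.5, P10 and Adult.

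In the NOD-ICR line without diabetes, ribosomal protein genes stood near the ICR adults. Of 81 genes 0 were higher and 1 lower, beside 9.38% and 4.48% of all genes, with a median of 0.12. The 1 gene was *Rps2*, a 40S protein near the mRNA entry channel, at 113, 211 and 236 (lowest, median, highest) in T1ND and at 172, 252 and 340 in adults, with overlap (−0.45 ± 0.14, edgeR adjusted p = 0.026). It did not pass without T1ND replicate 7. All T1ND libraries are Qiagen, and in Qiagen libraries alone no gene passed by edgeR.

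In diabetic NOD-ICR mice most of the family pointed up, and few genes passed. *Rps27l*, a paralog of *Rps27* known as a p53 target, was at 151, 204.3, 178 and 341 scaled CPM in the 4 T1D libraries and at 68.7, 93.4 and 169 (lowest, median, highest) in T1ND. The T1D libraries sat at or above the top of the T1ND range and overlapped it by 1 library. *Rpl29* was at 67.2, 120, 104 and 158 in T1D and at 44.1, 76.1 and 100 in T1ND, with 3 of the 4 T1D libraries above all T1ND libraries. *Rplp0* was at 362, 563, 651 and 597.7 against 234.8, 348 and 547. Of the 81 genes 2 were higher and 0 lower, beside 0.485% and 0.795% of all genes: *Rps27l* (1.17 ± 0.27, edgeR adjusted p = 0.0176) and *Rpl29* (0.73 ± 0.20, edgeR adjusted p = 0.0498). The median was 0.53, and 80 of 81 values lay above 0, the exception being *Rps27*. Of all 81 genes 53 had an unadjusted p below 0.05, and without *Rps27* 52 of 80, beside 2619 of all 16092 tested genes. *Rplp0* (0.67 ± 0.23), *Rps6* (0.53 ± 0.18) and *Rpl3* (0.53 ± 0.20) had adjusted p of 0.11, 0.12 and 0.15 (edgeR).

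These 2 calls were sensitive to single libraries and to other cells. *Rps27l* did not pass without T1ND replicate 1, T1ND replicate 2 or T1D replicate 4, and with terms for acinar, stromal and myeloid counts it stood at 0.99 (edgeR adjusted p = 0.22). *Rpl29* was lost in 50 of 63 fits that each leave out 1 library. The count of called genes ran from 0 without T1ND replicate 1 to 14 without T1ND replicate 5, and DESeq2 called 11. The median changed less: it was 0.53 in Qiagen libraries alone and 0.62 with the cell terms. On library totals it was 0.12 while all genes stood at −0.41. The acinar list held a mean of 19.95% of counts in T1D and 13.1% in T1ND, and the myeloid list 0.561% and 0.242%. Their part in the result was not tested.

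In Ob/+ mice of strain BTBR 19 of 81 genes were higher than in ICR adults and none lower, beside 3.37% and 1.83% of all genes; the median was 0.44 with all 81 values above 0, but −0.01 on library totals, where all genes stood at −0.43. *Rplp1*, a stalk protein, was at 52.5, 87.4 and 162 (lowest, median, highest) in T2H and at 39.0, 60.5 and 126 in adults. *Rps27l* was at 66.5, 95.6 and 229 in T2H and at 43.5, 74.8 and 181 in adults. The groups overlapped in both genes, with the T2H median above the adult one. The differences were 0.83 ± 0.19 and 0.86 ± 0.19 (edgeR adjusted p = 0.0074 and 0.0055), and *Rpl32* followed with 0.65 ± 0.19. The called genes were 8 of the large subunit, 7 of the small subunit, 2 of the stalk and 2 paralogs.

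The groups are split differently by extraction, with 8 of 9 T2H but 4 of 21 Adult libraries from TRIzol. The 1 Qiagen library, T2H replicate 9, was the highest T2H library for 79 of 80 genes, with *Rplp0* at 884 and the next library at 371. This library also had the highest age (179 days) and the highest blood glucose (271 mg/dl) of T2H, and their part was not tested. Without T2H replicate 9, 1 gene passed, and without it and T2D replicate 7 none did by edgeR, with a median of 0.27. Without the extraction term none passed and the median was 0.07. In TRIzol libraries alone, 8 against 4, the median was 0.34 and 2 genes passed: *Rplp1* (0.88, edgeR adjusted p = 0.014) and *Rps27l* (0.89, adjusted p = 0.0077).

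Between Ob/Ob and Ob/+ mice 1 paralog fell while the median of the family stayed near 0. *Rpl22l1* was at 9.2, 23.9 and 37.3 (lowest, median, highest) scaled CPM in T2H and at 4.83, 10.9 and 20.3 in T2D. Of the 7 T2D libraries 3 lay below every T2H library, and the T2D median was under all but 1 T2H library. The difference was −1.05 ± 0.21 (edgeR adjusted p = 0.00024), between −1.20 and −0.91 and called in all 63 fits without 1 library, and −1.05 in TRIzol libraries alone (adjusted p = 0.0087). Its counterpart *Rpl22* stood at 7.05, 10.99 and 21.4 in T2H and at 8.27, 12.3 and 34.97 in T2D (0.02 ± 0.22). The only other call was *Rpl4*, a 60S protein of the exit tunnel, at 200, 291 and 602 in T2H and at 313, 362 and 771 in T2D (0.44 ± 0.15, adjusted p = 0.027). In Qiagen libraries alone, with 1 T2H library, it turned to −0.18. Calls over the family were thus 1 higher and 1 lower, beside 9.75% and 8.5% of all genes, with a median of −0.0034, or 0.23 on library totals, where all genes stood at 0.29.

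The change with diabetes was also compared between the 2 models, as the T2D minus T2H difference minus the T1D minus T1ND difference. The median over the family was −0.52, or 0.11 on library totals, where all genes stood at 0.71. None of 81 genes was higher and 1 was lower, beside 1.05% and 1.09% of all genes. The gene was again *Rpl22l1* (−1.46 ± 0.33, edgeR adjusted p = 0.0058): it was at 15.3, 19.9 and 27.4 in T1ND and at 16.7, 24.1, 28.1 and 34.6 in T1D (0.41 ± 0.25). The test did not pass without the extraction term (−1.22, adjusted p = 0.058), in Qiagen libraries alone, without libraries above 20% acinar counts (−1.37, adjusted p = 0.12) or on library totals (−0.80, adjusted p = 0.14).

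Several paralogs departed from the rest of the family. RPL22L1 can replace RPL22 on the large subunit, and RPL22 is known to hold down expression of *Rpl22l1*. *Rpl22l1* (chr3:28805508-28807424) made up a mean of 62.5% ± 4.33 (SD) of the counts of the pair with *Rpl22* (chr4:152324436-152334082) in adults, 62.01% ± 4.75 in T2H and 43.9% ± 7.95 in T2D. The 9 T2H libraries ran from 56.6% to 72.5% and the 7 T2D libraries from 32.7% to 56.0%, without overlap. The gap was there within each extraction method: 61.8% in 8 and 45.6% ± 10.2 in 4 TRIzol libraries, and 63.5% in 1 and 41.7% ± 4.36 in 3 Qiagen libraries. The share was 62.5% at E18.5, 50.9% at P1, 47.9% at P7 and 63.6% at P10, lower at P1 and P7 than on either side. Among these 6 libraries, the 2 of little stroma, P1 replicate 1 (0.0693% stromal counts) and P7 replicate 3 (0.0350%), stood at 52.7% and 52.6%, below every E18.5 and P10 library (lowest 59.6%). Acinar counts were 0.0660% in P1 replicate 1 but 17% in P7 replicate 3, and their part was not tested. In NOD-ICR the share of *Rpl22l1* was 53.0% ± 6.69 in T1ND and 53.9% ± 4.37 in T1D. The libraries ran from 42.5% to 62.1% in T1ND, from 48.6% to 58.9% in T1D and from 54.4% to 68.6% in ICR adults, with overlap. Of 20 myeloid markers 18 were higher in T1ND than in ICR adults, and their part in this share was not tested.

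**Figure D5:**
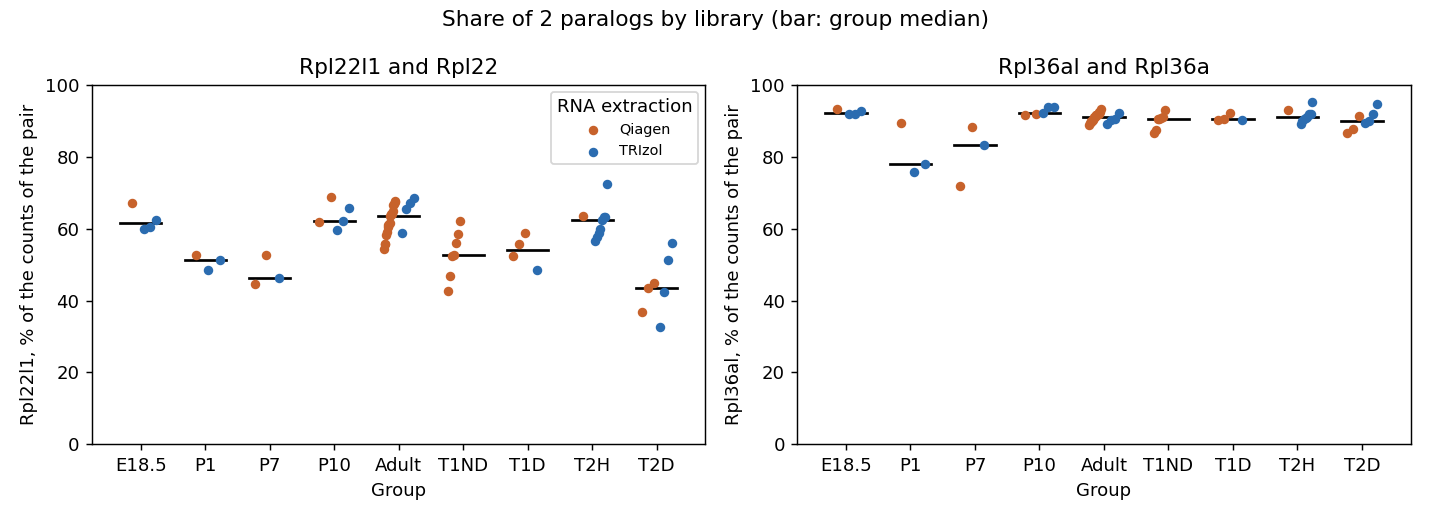
Paralog counts as percent of the pair, *Rpl22l1* with *Rpl22* and *Rpl36al* with *Rpl36a*, in every library by group (points, coloured by extraction; bars, group median). T2H runs from 56.6% to 72.5% and T2D from 32.7% to 56.0% in the first pair; in the second, P1 and P7 hold the lowest libraries, down to 71.9%.

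*Rpl36al* (chr12:69182734-69184067) was the major copy of its pair. It held 92.4% of pair counts at E18.5, 92.7% at P10 and 91.0% in adults, against 89.3%, 77.9% and 75.6% in the 3 P1 libraries and 83.3%, 71.9% and 88.2% in those of P7. The 4 lowest values are those of the 4 libraries with 1.54% to 2.80% stromal counts, and the part of stromal cells was not tested. *Rpl7l1* (chr17:46773907-46782656), whose protein takes part in ribosome assembly, made up 29.2% of its pair with *Rpl7* at E18.5, 40.2% in adults and 44.3% in T2D. It held its level of 44.9 to 57.6 scaled CPM at E18.5 and 44.3 to 75.3 in adults while *Rpl7* fell (−0.87 ± 0.18). *Rps27l* (chr9:66944624-66949522) stood 0.08 above the median log2 level of the family at E18.5, 0.20 in adults, 0.59 in T2H, 1.03 in T1D and 1.10 in T2D. It was thus farthest above the family in both diabetic groups, and was at 99.2, 153 and 327 scaled CPM in T2D. Its difference between T2D and T2H did not pass (0.47 ± 0.22, edgeR adjusted p = 0.13).

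*Rpl3l*, *Rpl10l* and *Rpl39l*, paralogs known from muscle and testis, were near background, with mean counts of 1.71, 0.762 and 0.571 per library, and were not tested. *Rps27* (chr3:90212667-90213648) also had few counts, a mean of 8.14 and 0 in 32 of 63 libraries. Its near-identical intronless copy *Rps27rt*, not chosen by the rule, had a mean of 1775 counts (705 to 5214) and 0 in none, so reads of the 2 genes cannot be told apart and no fold of *Rps27* is read. *Rps27rt* was at 38.4 to 50.5 scaled CPM at E18.5 and 28.4 to 76.5 in adults (−0.06 ± 0.27, edgeR adjusted p = 0.88), with the adult range around the embryonic one.

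*Fau*, which gives RPS30, and *Rack1*, whose protein binds the 40S subunit, lie outside the name rule and fell in the same comparisons. They changed by −0.75 and −1.21 (log2) from E18.5 to adulthood, and by −0.55 and −0.80 with TRIzol, and both passed in each. Of the genes of mitochondrial ribosomal proteins, which serve the organelle's own translation, 40 of 76 were lower in adults than at E18.5, with a median of −0.40. This stood beside 19.2% of all tested genes lower. With TRIzol 52 of 76 were lower, with a median of −0.32, beside 11.1% of all tested genes.

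Among other genes of translation, most initiation and elongation factors were lower in adults. The background is the 19.2% of all tested genes that were lower and the 15.6% that were higher. From E18.5 to adulthood 6 of 10 elongation factors were lower and 1 higher, with *Eef1g* (−0.94 ± 0.17) and *Eef1d* (−0.87 ± 0.13), both of the complex that recharges eEF1A with GTP, of smallest p. Of 35 initiation factors 20 were lower and 2 higher, among them *Eif3e*, an eIF3 subunit, at −0.97 ± 0.12, and *Eif4h*, a cofactor of the eIF4A helicase, at −0.95 ± 0.10. Of 13 other genes with known TOP mRNAs 10 were lower and none higher, with a median of −1.05. Among these were *Npm1*, the nucleolar chaperone nucleophosmin, at −1.06 ± 0.13, and *Ssr2*, a subunit of the translocon-associated complex, at −1.97 ± 0.24. Of 52 ribosome biogenesis factors 11 were lower and 5 higher, with a median of 0.02, close to that of all tested genes (0.01), so nothing is read from these counts. *Fbl*, the rRNA methyltransferase fibrillarin, changed by −1.05 ± 0.15, and *Wdr12*, of the PeBoW complex of large subunit assembly, by 0.91 ± 0.15.

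Of 24 regulators of ribosomal protein synthesis 3 were lower and 3 higher, no more than the background. *Myc*, which drives ribosome genes in growing cells, was at 20.6, 26.3, 27.4 and 59.5 scaled CPM at E18.5 and at 1.05, 2.93 and 8.70 in adults (−3.20 ± 0.37), without overlap. *Mycl*, its relative, was at 6.11, 9.70, 16.3 and 14.6 at E18.5 and at 0 to 0.354 in adults, without overlap. Of 30 proliferation genes 29 were lower in adults than at E18.5. From E18.5 to P10, 1 of 30 was called lower, but all 30 values lay below 0 (median −0.95). In that step 16 of 81 ribosomal protein genes (median −0.65) and 3.52% of all tested genes were lower. From P10 to adulthood 28 of 30 proliferation genes were lower (median −2.23), beside 2 of 81 ribosomal protein genes (median −0.14) and 9.98% of all tested genes. From T2H to T2D 24 of 30 proliferation genes were lower, beside 8.5% of all tested genes, while the ribosomal protein genes had 1 call in each direction.

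In the BTBR groups some initiation and assembly factors were higher. From T2H to T2D 9 of 35 initiation factors were higher and 1 lower, and 9 of 52 biogenesis factors were higher and 1 lower, beside 9.75% higher and 8.5% lower of all tested genes. Of 20 myeloid markers 8 were higher and of 12 β cell genes 9 were lower in the same comparison, and their part in these counts was not tested. *Utp4* (0.78 ± 0.16) and *Wdr43* (0.70 ± 0.16), which act in small subunit assembly in the nucleolus, and *Eif3c* (0.53 ± 0.11) were among them. Against ICR adults, T2H had 9 of 35 initiation factors higher and none lower, beside 3.37% and 1.83% of all tested genes. *Eif4ebp1*, the mTORC1 target that blocks cap-dependent initiation, was higher by 1.46 ± 0.30 in T2H (edgeR adjusted p = 0.0018) and by 1.55 in T1ND.

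Across libraries the family moved as a block. The median Pearson correlation over pairs of 80 genes was 0.841 across 63 libraries and 0.854 across the 17 Qiagen adults, where neither group nor extraction differs. The 76 mitochondrial ribosomal protein genes gave 0.513 and 0.466. These are descriptions of points that share libraries and depth. *Rps27a* had the highest mean correlation with the others (0.861), and *Rpl7l1* (−0.151), *Rpl22l1* (0.575), *Rpl36al* (0.611), *Rpl37a* (0.615) and *Rps27l* (0.623) the lowest. The genes whose distance from the family median varied most over libraries were *Rpl7l1* (SD 0.55 on the log2 scale), *Rpl22l1* (0.46), *Rps27l* (0.44), *Rps12* (0.41) and *Rps28* (0.40), and 3 of these 5 are paralogs. The block is also seen in which library ranked highest in a group: E18.5 replicate 1 for 71 of 80 genes, P10 replicate 2 for 73, T1D replicate 4 for 73, P7 replicate 2 for 76, T2H replicate 9 for 79 and T2D replicate 7 for 79. All 6 are Qiagen libraries. At P1 it was replicate 3, from TRIzol, for 60 genes and replicate 1, from Qiagen, for 20.

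Although a ribosome carries close to 1 copy of each of its proteins, mRNA levels differed widely between members. In the 17 Qiagen adults the level per length, in scaled CPM per 1000 bases of annotated transcript, had a median of 101 over genes and 10th and 90th percentiles of 43.3 and 220. The highest were *Rpl41* (412), which codes for the smallest ribosomal protein, *Rpl10* (400), *Rplp0* (391) and *Rpl13* (337), followed by *Rps14* (264), *Rps2* (262) and *Rps6* (255). The lowest were *Rpl22* (7.40) and *Rps20* (9.46), whose annotated transcripts of 2048 and 3706 bases are long for the family, where the median is 713.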

How the data were processed

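RNA sequencing of sorted β cells was analysed from a deposited table of RSEM expected counts for 20306 genes in 63 libraries. Per the submitters' processing notes, the authors used bcl2fastq 2.20.0.422, Bowtie 1.2.2 and RSEM 1.3.0 with mm10; the gene annotation is not given in the sources used here. Per the labels' protocols, SMART-Seq v4 cDNA was tagmented with Nextera XT, and strand was lost. Values that were not whole (48.55%) were rounded before testing. RSEM splits reads between near-identical copies by estimate. Libraries held 23894167 to 73839270 counts (median 36444826), so counting error is small for members of at least 10 CPM (80 of 84). Symbols were matched by name (18963 genes) or synonym (1244), and 99 kept the deposited name.

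With edgeR 4.0.16 (R 4.3.3, limma 3.58.1), genes were kept with filterByExpr by group (16092) and scaled with TMM (factors 0.474 to 2.03). Group means for all 9 groups and the extraction method entered 1 robust quasi-likelihood fit with two-sided tests; Benjamini-Hochberg adjustment ran over all tested genes, and calls were taken at 0.05. Replicate numbers follow accession order. The code was tested on simulated data. The members and gene lists were chosen with earlier results of these data known. Named genes are fixed anchors and paralogs, up to 3 called members of largest rise and fall per comparison, the 5 members of largest deviation from the family median, and up to 2 called genes of smallest p of each other translation list; the members listed as not passing, and those given with correlations or levels per length, were chosen after their values were seen. Not every gene so chosen is reported here. Correlations between genes and distances from the family median use log2 scaled CPM with a prior count of 1.

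Alternatives were RLE factors, no low-count filter, no extraction term, either extraction alone, an indicator of S numbers above 60 in the labels, omission of libraries above 1% stromal or 20% acinar counts, terms for other cells, only the compared groups, DESeq2 1.42.0, and each library left out. Library totals without factors, fits without 2 or 4 high Qiagen libraries, and a block for numbers shared by titles were chosen after seeing the data.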

Additional observations from a re-analysis of the deposited data

Results flagged for a closer look

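Of 144 values of a group of 4 to 10 libraries that were checked for a library far from the rest (23 genes and the family's share of counts in 6 groups), 34 had one; chance gives about 1 in 20 groups, and the genes share their libraries. In 33 of the 34 it was 1 of 3 Qiagen libraries, high in each case. The cause was not tested.

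T2H replicate 9, the 1 Qiagen library of its group and also that of highest age and blood glucose, stood far above the other T2H libraries for 17 genes. Its scaled CPM was 884 for *Rplp0* (next library 371), 162 for *Rplp1*, 91.2 for *Rplp2*, 279.3 for *Rpsa*, 404 for *Rps6* and 404 for *Rps2*. For further genes of the small subunit it was 107 for *Rps16*, 175 for *Rps25* and 49 for *Rps12*. For the large subunit it was 299.5 for *Rpl3*, 602 for *Rpl4*, 183 for *Rpl5*, 213 for *Rpl15*, 84.6 for *Rpl28* and 132 for *Rpl29*. The paralogs *Rpl36al* and *Rps27l* stood at 366 and 229.

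T2D replicate 7 was far above the other T2D libraries for 9 genes, with scaled CPM of 195 for *Rplp1*, 121 for *Rplp2*, 147 for *Rps16*, 528.4 for *Rps2* and 80.8 for *Rps12*. In the same library *Rpl5* stood at 314, *Rpl28* at 106, *Rpl36al* at 326 and *Rps27l* at 327.

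P10 replicate 2 held the highest share of counts for the family at P10, 0.923% against 0.765% in the next library. It was far above the others for *Rplp2* (61.3 scaled CPM), *Rpsa* (164), *Rpl3* (189), *Rpl4* (310), *Rpl23a* (61.5) and *Rpl28* (54.4). The remaining case was *Rpl7l1* in T2H replicate 1, a TRIzol library, at 92.5 with the next library at 73.2.

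*Rpl22l1* differed between the diabetes models in its change with diabetes, by −1.46 on the log2 scale (T2D effect minus T1D effect, edgeR adjusted p = 0.0058).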

How the results depend on the processing

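Counts of ribosomal protein genes called (edgeR, adjusted p below 0.05) changed with the processing as follows; the cause was not tested. Shares of all tested genes are not given beside these counts, so they are not read as particular to the family. Without the extraction term they were 0 (P1 vs E18.5), 0 (P10 vs E18.5), 1 (Adult vs P10), 21 (Adult vs E18.5), 0 (T1ND vs Adult), 0 (T1D vs T1ND), 0 (T2H vs Adult) and 0 (T2D effect vs T1D effect). Qiagen libraries alone gave 0, 0, 1, 3, 0, 0, 0 and 0 in the same order, 0 for P10 vs P7 and 0 for T2D vs T2H, with some groups down to 1 library, assumed to vary like the rest. TRIzol libraries alone gave 7 (P1 vs E18.5), 6 (P10 vs P7), 2 (T2H vs Adult) and 8 (T2D vs T2H); T1ND has no such library. Library totals without factors gave 5 (P1 vs E18.5), 68 (P10 vs P7), 7 (Adult vs P10), 0 (T1D vs T1ND), 0 (T2H vs Adult), 7 (T2D vs T2H), 0 (T2D effect vs T1D effect) and 7 (TRIzol vs Qiagen). Terms for acinar, stromal and myeloid counts gave 0 (P1 vs E18.5), 0 (P10 vs P7), 0 (Adult vs P10), 30 (Adult vs E18.5), 0 (T1ND vs Adult), 0 (T1D vs T1ND) and 1 (T2D vs T2H). Omission of libraries above 1% stromal counts gave 0 (P1 vs E18.5), 0 (P10 vs P7), 1 (T1D vs T1ND) and 29 (T2H vs Adult). Omission of those above 20% acinar counts gave 7 (P10 vs E18.5), 0 (T1ND vs Adult), 0 (T1D vs T1ND), 4 (T2D vs T2H) and 0 (T2D effect vs T1D effect). Only the groups compared gave 13 (P10 vs P7), 73 (P10 vs E18.5), 1 (Adult vs P10), 0 (T1D vs T1ND) and 1 (T2D vs T2H). DESeq2 gave 26 (P10 vs E18.5), 11 (T1D vs T1ND), 30 (T2H vs Adult) and 2 (T2D effect vs T1D effect). The term for S numbers gave 0 (Adult vs P10), RLE factors 4 and no low-count filter 1 (both T1D vs T1ND). Without T2H replicate 9 and T2D replicate 7 the counts were 27 (P10 vs E18.5), 1 (Adult vs P10) and 0 (T2H vs Adult); without these and P7 replicate 2 and P10 replicate 2 they were 1 (P10 vs P7), 0 (Adult vs P10), 2 (T1ND vs Adult), 4 (T1D vs T1ND), 0 (T2H vs Adult) and 43 (TRIzol vs Qiagen). ICR adults alone gave 2 (TRIzol vs Qiagen).

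Leaving out 1 library at a time, counts ran from 0 to 1 (P1 vs E18.5), 1 to 31 (P10 vs P7), 1 to 25 (P10 vs E18.5), 0 to 6 (Adult vs P10), 57 to 72 (Adult vs E18.5), 0 to 2 (T1ND vs Adult), 0 to 14 (T1D vs T1ND), 1 to 38 (T2H vs Adult), 1 to 5 (T2D vs T2H), 1 to 3 (T2D effect vs T1D effect) and 70 to 78 (TRIzol vs Qiagen).

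Shares of counts held by the family rose over counts outside insulin genes, *Iapp* and the acinar list to 1.90% (E18.5), 2.16% (P1), 1.36% (P10), 1.27% (Adult), 1.26% (T2H), 1.29% (T1ND), 1.40% (T1D) and 1.42% (T2D). Of all counts, shares in Qiagen libraries alone were 1.37% (P1) and 0.937% (T2H).

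Among 10753 values of 139 called differences under an alternative, 9923 kept direction and call, 824 no longer passed and 6 turned in sign. These were *Eif4g1* in P1 vs E18.5 (0.032, Qiagen alone), *Btf3* (−6.9e-05) and *Rps6* (−0.031) in T2H vs Adult on library totals, and *Eif2b2* (−0.0057), *Rpl4* (−0.18) and *Tsc22d1* (−0.24) in T2D vs T2H in Qiagen libraries alone. Titles share a number in 3 pairs of libraries (P7 replicates 1 and 2, P10 replicates 2 and 3, Adult replicate 10 with T2D replicate 6). Over all tested genes the deviations of paired libraries from their group means correlated at −0.011, −0.39 and −0.017, and 0 of the 6 libraries correlated best with its own number. In the P7 and P10 pairs, which also differ in extraction, deviations from the mean of a small shared group are pushed below 0. The correlations thus cannot decide whether a number marks an animal in the P7 and P10 pairs. The Adult and T2D pair differs in strain label, Ob and age, so it is not 1 animal. The main fit took each library as separate. A replicate block for these numbers, chosen after seeing the data, leaves P7 replicate 3 as the 1 library outside a pair at P7; it gave 0 (P10 vs P7), 2 (P10 vs E18.5), 0 (Adult vs P10) and 1 (T1D vs T1ND) calls, and 77 for TRIzol vs Qiagen. The other counts stayed within 1.5 times of those reported. Groups of 3 to 5 libraries before adulthood and of 4 in T1D limit the precision.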
